A study of Homo sapiens with 12 samples.

Results

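The nuclear genes of the mitochondrial respiratory chain and of the mitochondrial ribosome were followed in H460 cells, a human lung cancer line, after treatment with each of 5 drugs. Members were taken by gene symbol from the annotation of the array: symbols that start with NDUF, UQCR, ATP5, MRPL or MRPS, with SDH and a letter from A to D, or with COX and a digit, together with CYC1 and CYCS. The rule found 49 genes, carried by 52 probes, among the 5499 named genes of the table. Of these, 14 belong to complex I, 3 to complex II, 4 to complex III, 5 to complex IV and 6 to ATP synthase. The large subunit of the mitochondrial ribosome has 10 members and the small subunit 7. CYC1 and CYCS are not among them, and 2 further probes that match a member together with another gene were not used.

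Each array compared RNA of treated cells with RNA of untreated cells of the same line after 24 h. The drugs were 5-fluorouracil (5-FU), a pyrimidine antimetabolite, at 1 µM, cytarabine (spelt cytarabin in the labels), a cytidine analogue that stops DNA synthesis, at 0.2 µM, and cisplatin, which crosslinks DNA, at 5 µM. Paclitaxel, which stabilises microtubules, was given at 5 nM, and cytochalasin D, which blocks actin polymerisation, at 0.2 µM. The 12 arrays comprise 4 for 5-FU, which are 2 replicates hybridised in both channel orientations (forward and reversed), and 2 replicates in a single orientation for each of the other 4 drugs. Nothing in the labels tells if the 2 replicates of a drug were grown separately, or if several drugs were set against the same untreated RNA, so p-values measure the spread between these samples, which may be technical. A ratio from bulk RNA cannot tell fewer cells that express a gene from less of its RNA per cell.

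The respiratory chain passes electrons from NADH (complex I) and succinate (complex II) through ubiquinone, complex III and cytochrome c to complex IV, which reduces oxygen. Complexes I, III and IV pump protons, and ATP synthase uses the gradient to make ATP. A few subunits of these complexes are encoded by mitochondrial DNA and made on the mitochondrial ribosome, whose proteins are themselves encoded in the nucleus, so both sets of genes have to be expressed together for a working chain.

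Each value is a log ratio whose base the sources used here do not give. It was taken as log2, and another base, such as the natural one, would change the sizes but neither a direction nor a call. All ratios are given as drug over untreated. Which channel is on top of the deposited ratio is not stated, so this direction is likely rather than known: it is the one in which MDM2, CDKN1A and the median of 10 measured p53 targets are positive in 5-FU (1.48, 2.49 and 0.43). On the cisplatin arrays, which did not set it, MDM2 then reads 2.74 and 2.57. Between 21.5 and 46.7% of probes lack a value on the 5-FU arrays and between 6.44 and 14.5% on the others, and 28 of the 49 members have a value on all 12 arrays. Ratios carry no expression level, so the cell type could not be checked by its markers: 4 of 5 epithelial markers and 4 of 7 markers of other cell types have a probe, and among them CDH1 and EPCAM have no value on any 5-FU array.

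The 2 replicates of each drug were tested with limma, and the model included a channel effect that can be measured only where a gene has forward and reversed 5-FU values. "Rose" and "fell" are used of genes with a Benjamini-Hochberg adjusted p under 0.05 over all features that could be tested in that comparison. Each fitted ratio is followed by its standard error on the log2 scale. The channel effect could be estimated from 2 pairs of 5-FU arrays for 32 members, from 1 pair for 9 and from none for 8. In 5-FU it cancels between the orientations and leaves the ratio itself unchanged. In the other 4 drugs it is subtracted from the ratio, and a call there was also examined without it.

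5-FU gave the most calls of the 5 drugs, 13 genes in all. Its ratios were also the most precise, with a median standard error of 0.068 over tested members against 0.091 in each other drug. The numbers of calls therefore do not compare the sizes of the drug effects. The median unsigned member ratio was 0.11 in cytarabine, 0.17 in cisplatin, 0.19 in paclitaxel and 0.17 in cytochalasin D. Of 32 members tested in 5-FU, 10 fell and 3 rose, that is 31.2% and 9.38% of them. Over all 3829 features tested in 5-FU 12.1% fell and 5.54% rose. Without 5-FU replicate 1 the falls numbered 5 and the rises 2. The median member ratio was 0.03 against 0.01 over all features, and the median size of the ratio without its sign was 0.15 against 0.09. The centre of the members therefore lay near 0 while single genes moved in both directions, between −0.78 and 0.89. On the single arrays, over every member with a value, the median was between −0.11 and −0.05, which differs in sign from the median of the tested members. By complex, the genes that fell were 3 of 9 tested in complex I, 2 of 3 in complex IV, 2 of 5 in ATP synthase, 1 of 5 in the large and 2 of 4 in the small ribosomal subunit. The genes that rose were 1 in complex I and 2 in the large subunit, and no gene of complex II (2 tested) or complex III (4 tested) passed (at an unadjusted p under 0.05, 0 and 1 of them).

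**Figure D1:**
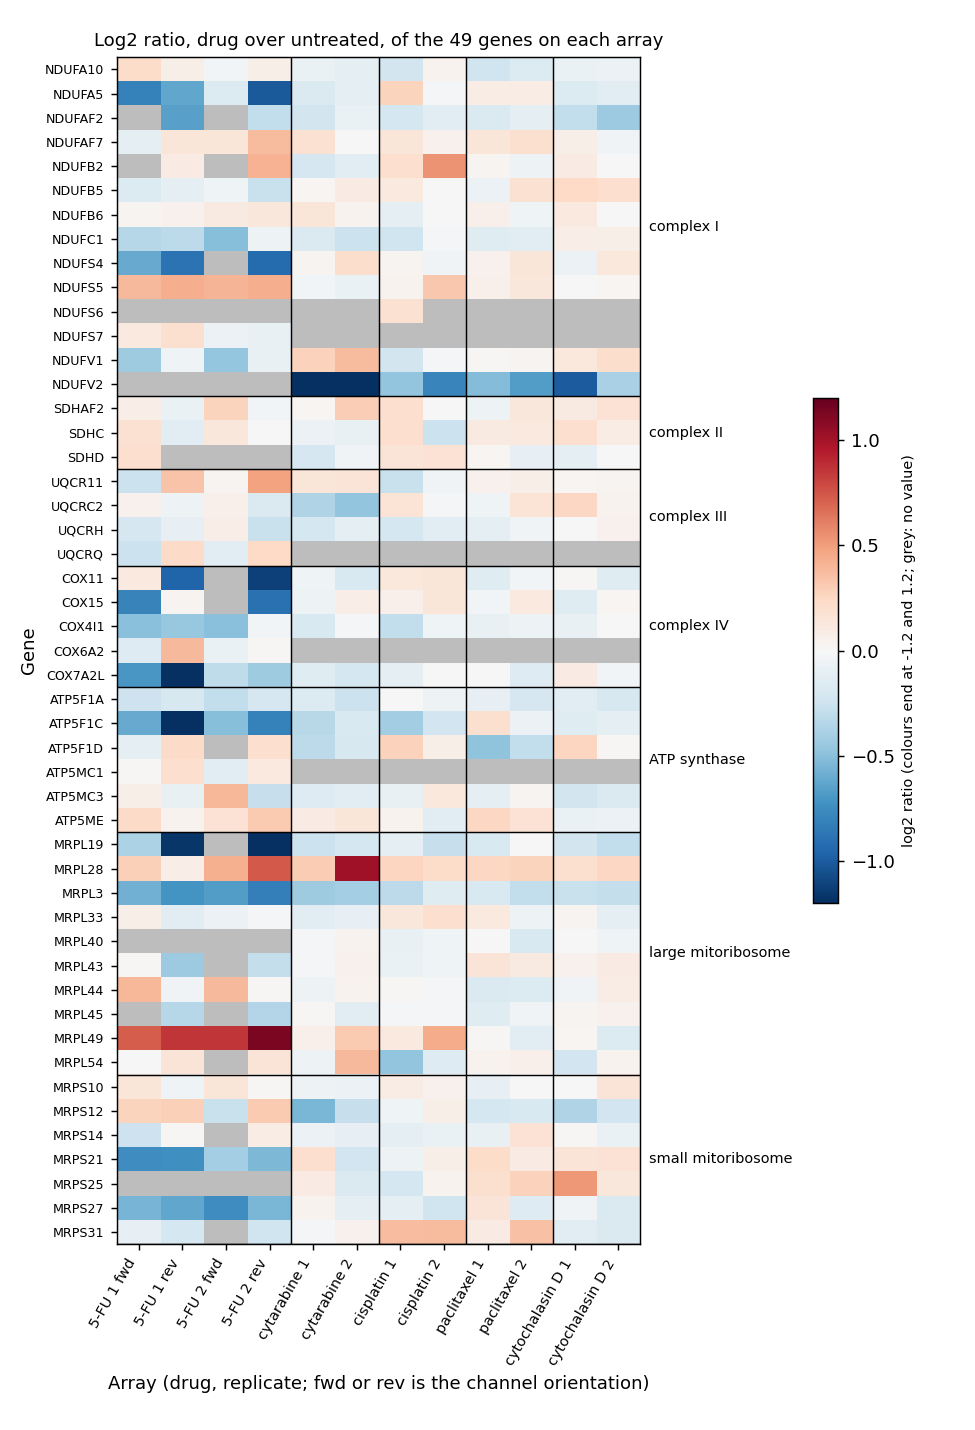
Log2 ratio, drug over untreated, of the 49 genes (rows, by complex) on each of the 12 arrays (columns, by drug and replicate), with grey where there is no value and colours ending at −1.2 and 1.2. Most of the darkest cells are in the 5-FU columns, apart from NDUFV2, whose cytarabine values of −1.67 and −2.34 lie beyond the scale.

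In complex I, which oxidises NADH, the largest 5-FU change was in NDUFA5, an accessory subunit of the arm that protrudes into the matrix. NDUFA5 read −0.81 and −0.16 on the forward arrays of replicates 1 and 2, and −0.63 and −1.01 on the reversed arrays. All 4 arrays were below 0, with the forward array of replicate 2 nearest to it. The fitted ratio was −0.65 ± 0.07 (1.57-fold lower, adjusted p = 0.000247). NDUFC1, a small subunit of the membrane arm, fell by 0.31 ± 0.06 (adjusted p = 0.00668) from array values between −0.51 and −0.06. NDUFV1, the core subunit that binds NADH and the flavin, read −0.42 and −0.47 forward and −0.05 and −0.09 reversed. The forward arrays were thus low and the reversed ones close to 0, and the ratio was −0.26 ± 0.06 (adjusted p = 0.0181). NDUFC1 no longer passed without 5-FU replicate 1 (−0.29) or 2 (−0.33), nor did NDUFV1 (−0.28 and −0.24).

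A single gene of complex I rose in 5-FU. NDUFS5, an accessory subunit that faces the intermembrane space, read 0.39 and 0.40 on the forward arrays and 0.43 and 0.43 on the reversed arrays. These 4 values were the most even of any gene that passed, and the ratio was 0.41 ± 0.07 (1.33-fold higher, adjusted p = 0.00264). The other 5 tested genes of the complex, NDUFA10, NDUFB5, NDUFB6, the assembly factor NDUFAF7 and NDUFS7 (the core subunit with the last iron-sulfur cluster before ubiquinone), had ratios between −0.15 and 0.14 and did not pass.

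Complex II, which feeds electrons from succinate, had 3 members, and none passed in any drug in limma (at an unadjusted p under 0.05, 1 of 2 tested with cytarabine and 1 of 2 with cytochalasin D). Leaving out a replicate brought in SDHAF2 with cytarabine (0.41 without cytarabine replicate 1) and SDHC with cytochalasin D (0.26 without either cisplatin replicate). SDHC, a membrane anchor of the complex, read 0.18 and 0.14 on the forward and −0.14 and −0.01 on the reversed 5-FU arrays, which gave 0.04 ± 0.09. In the other drugs SDHC read −0.07 and −0.09 with cytarabine, 0.20 and −0.26 with cisplatin, 0.10 and 0.11 with paclitaxel, and 0.20 and 0.09 with cytochalasin D. SDHD, the other anchor, has a single 5-FU value of 0.20 and could not be tested there. Its values in the other drugs were −0.20 and −0.04 (cytarabine), 0.15 and 0.17 (cisplatin), 0.03 and −0.10 (paclitaxel), and −0.12 and 0.01 (cytochalasin D). SDHAF2, which helps insert the flavin into the complex, had fitted ratios from 0.06 ± 0.08 in 5-FU to 0.27 ± 0.10 in cytarabine.

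The 4 genes of complex III, which passes electrons from ubiquinol to cytochrome c, did not pass in 5-FU either. UQCR11, a small subunit, read −0.26 and 0.03 forward and 0.34 and 0.48 reversed, so that the orientations disagreed in level, and its ratio was 0.15 ± 0.07. UQCRH, the hinge protein near cytochrome c, had −0.12 ± 0.05, and UQCRC2, a core protein of the matrix side, −0.03 ± 0.08. UQCRQ, a small subunit that has values in 5-FU alone, had 0.02 ± 0.06.

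Complex IV, which reduces oxygen, had 3 members tested in 5-FU. COX7A2L, which joins complexes III and IV into supercomplexes, read −0.70 and −0.31 on the forward arrays and −1.47 and −0.43 on the reversed arrays. All 4 were below 0, and both arrays of replicate 1 were lower than those of replicate 2. The ratio was −0.73 ± 0.14 (1.65-fold lower, adjusted p = 0.00642), and −0.37 without 5-FU replicate 1, which still passed. COX4I1, a nuclear subunit that binds regulators of the complex, read −0.50 and −0.50 forward, and −0.46 and −0.03 reversed, for a ratio of −0.37 ± 0.08 (adjusted p = 0.0104). It did not pass without 5-FU replicate 1 (−0.27). COX6A2, the isoform of heart and skeletal muscle, had 0.04 ± 0.07 and values in 5-FU alone.

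In ATP synthase the gene with the largest change was ATP5F1C, which encodes the gamma subunit, the rotor shaft of the catalytic head. ATP5F1C read −0.60 and −0.51 on the forward and −1.22 and −0.81 on the reversed 5-FU arrays. Every array was at or below −0.51, the reversed ones lower than the forward ones. The ratio of −0.78 ± 0.09 (1.72-fold lower, adjusted p = 0.000299) was the largest fall of any tested member. ATP5F1A, the alpha subunit of the same head, read −0.25 and −0.30 forward and −0.19 and −0.20 reversed, and fell by 0.24 ± 0.05 (adjusted p = 0.0126). That call was lost without 5-FU replicate 1 (−0.25) or 2 (−0.22). Among genes of the membrane part, ATP5MC1 and ATP5MC3, which encode the same ring protein, had 0.05 ± 0.06 and 0.02 ± 0.06, and ATP5ME, a subunit at the dimer interface, 0.19 ± 0.06 (adjusted p = 0.0531). They did not pass, apart from ATP5ME when either cisplatin replicate was left out (0.19), and the difference between head and membrane genes was not tested.

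The large subunit of the mitochondrial ribosome held both the largest rise of any member and a large fall. MRPL49, a protein of this subunit, read 0.73 and 0.86 on the forward and 0.85 and 1.13 on the reversed 5-FU arrays. All 4 were far above 0, and the ratio was 0.89 ± 0.10 (1.85-fold higher, adjusted p = 0.000285). MRPL3, the counterpart of a core protein of bacterial ribosomes, read −0.58 and −0.67 forward and −0.72 and −0.82 reversed. These values were close together and all low, and the ratio was −0.70 ± 0.06 (1.62-fold lower, adjusted p = 5.32e-05). Its 2 probes agreed in direction but differed in size, and gave ratios of −0.28 and −1.11 when fitted apart. MRPL44, which carries a ribonuclease III fold, rose by 0.19 ± 0.05 (adjusted p = 0.0381) with 0.40 and 0.39 forward but −0.04 and 0.01 reversed. It lost the call without 5-FU replicate 1 (0.20) or 2 (0.18), without either replicate of cisplatin or of paclitaxel (0.19 each) and with arrays scaled to the same spread (0.16). MRPL28 (0.38 ± 0.15) and MRPL33 (−0.03 ± 0.06) did not pass.

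In the small subunit 2 of 4 tested genes fell in 5-FU. MRPS27, a protein of animal mitochondrial ribosomes with RNA-binding repeats, read −0.55 and −0.74 on the forward and −0.62 and −0.55 on the reversed arrays. The values were alike in both orientations and both replicates, and the ratio was −0.62 ± 0.08 (1.53-fold lower, adjusted p = 0.000752). MRPS21 read −0.74 and −0.41 forward and −0.74 and −0.54 reversed, with replicate 1 the lower, for a ratio of −0.61 ± 0.10 (1.52-fold lower, adjusted p = 0.00332). Without 5-FU replicate 1 the ratio of MRPS21 was −0.47 and did not pass. MRPS12, which contacts the decoding centre, had 0.15 ± 0.08 with 3 arrays above 0 and 1 at −0.26, and MRPS10 had 0.06 ± 0.05.

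**Figure D2:**
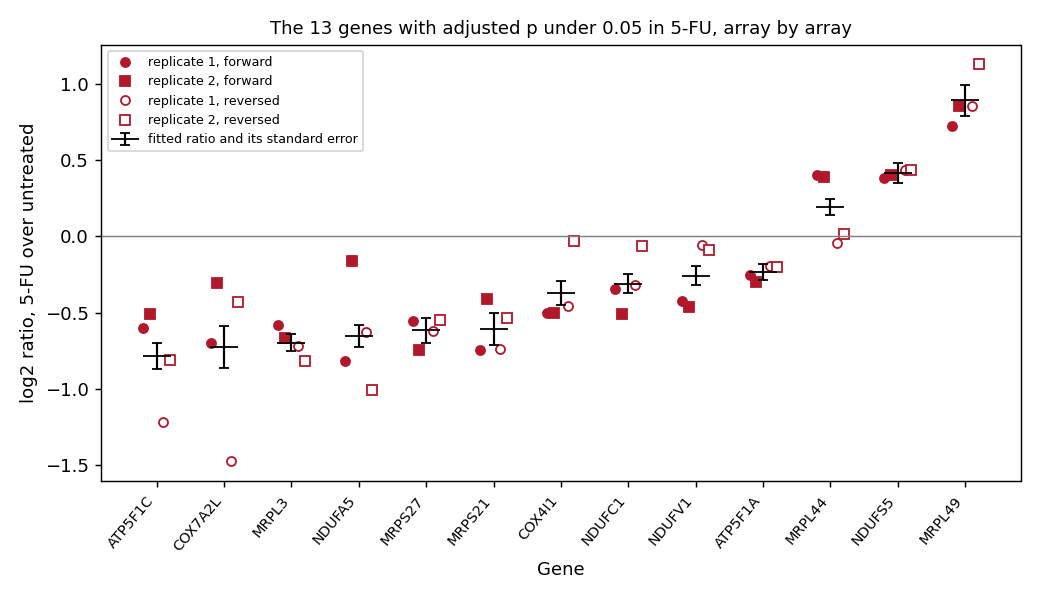
Log2 ratio, 5-FU over untreated, of the 13 genes that passed, with forward arrays filled, reversed arrays open, replicate 1 as circles and replicate 2 as squares, and the fitted ratio with its standard error as black bars. MRPL49 lies between 0.73 and 1.13 on its 4 arrays and ATP5F1C between −1.22 and −0.51, while NDUFV1 and MRPL44 read close to 0 in the reversed orientation.

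The promoters of 4 of these genes are shown because these genes, 3 down and 1 up, had the largest rises or falls of ATP synthase and of each ribosomal subunit and read the same way on all 4 arrays. Each is the 250 bases before the RefSeq start site on GRCh38.p14, given 5′ to 3′ on the strand of the gene. Capitals mark a match, on either strand, to GCGCA and GCGC with any 1 base between them, a form of the site of NRF1 (nuclear respiratory factor 1), or to CCGGAAG, a core bound by ETS factors such as GABPA, both textbook regulators of nuclear mitochondrial genes. They lie at chr10:7787927-7788176 on the plus strand (ATP5F1C), chr3:131502972-131503221 on the minus strand (MRPL3), chr5:72320241-72320490 on the minus strand (MRPS27) and chr11:65121933-65122182 on the plus strand (MRPL49, at the first of 2 listed starts).
ATP5F1C: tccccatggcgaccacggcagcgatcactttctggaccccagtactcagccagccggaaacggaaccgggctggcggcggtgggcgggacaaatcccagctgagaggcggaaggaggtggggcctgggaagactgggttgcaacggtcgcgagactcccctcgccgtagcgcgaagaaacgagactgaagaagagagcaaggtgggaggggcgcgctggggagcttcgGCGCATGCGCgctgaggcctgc
MRPL3: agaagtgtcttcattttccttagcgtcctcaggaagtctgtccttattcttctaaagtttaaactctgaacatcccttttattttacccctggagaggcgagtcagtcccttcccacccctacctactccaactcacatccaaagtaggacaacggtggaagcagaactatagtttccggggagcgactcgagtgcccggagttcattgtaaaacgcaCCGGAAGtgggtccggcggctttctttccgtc
MRPS27: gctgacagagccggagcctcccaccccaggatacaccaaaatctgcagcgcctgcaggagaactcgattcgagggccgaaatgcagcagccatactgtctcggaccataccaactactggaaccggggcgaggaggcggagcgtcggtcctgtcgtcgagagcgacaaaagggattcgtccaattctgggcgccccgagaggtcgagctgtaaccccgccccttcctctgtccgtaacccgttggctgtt
MRPL49: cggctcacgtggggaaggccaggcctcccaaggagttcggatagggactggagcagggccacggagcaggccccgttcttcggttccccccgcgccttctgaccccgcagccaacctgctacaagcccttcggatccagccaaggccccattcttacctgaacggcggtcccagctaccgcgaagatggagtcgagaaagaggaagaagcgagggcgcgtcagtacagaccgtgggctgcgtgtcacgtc
The promoter of ATP5F1C holds the NRF1 letters once and that of MRPL3 the ETS letters once, while the windows of MRPS27 and MRPL49 hold neither. Among the 43 members with a promoter in the table, 11.6% hold the NRF1 letters and 37.2% the ETS letters at any listed start, against 6.2% and 10.2% of the 27305 genes of that table. Median GC content was 61.2% in the members and 58.0% in all genes. Of the 10 members that fell in 5-FU, 1 holds the NRF1 and 3 the ETS letters. Of the 16 tested ones without a call, 2 and 7 do, and of the 2 that rose and have a promoter in the table, none does. A match to these letters is a description of the sequence and not of a bound site.

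A further 17 members could not be tested in 5-FU with the channel term, because a forward value was missing in 1 or both replicates or all values were. Without that term 44 members could be tested, and 17 fell and 3 rose (13.4% and 6.75% of the 5589 features tested the same way). The 7 added genes were read mostly from reversed arrays. NDUFS4, an accessory subunit of the NADH-oxidising part of complex I, read −0.60 forward and −0.89 and −0.93 reversed, for −0.84 ± 0.08. MRPL19 of the large ribosomal subunit read −0.38 forward and −1.17 and −1.32 reversed, for −1.05 ± 0.12.

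In complex IV, COX11, which delivers copper to the catalytic centre, read 0.11 on its forward array against −0.96 and −1.12 on the reversed arrays. COX15, which makes haem A, read −0.80 forward, but 0.03 and −0.90 on the reversed arrays. Both therefore changed sign within replicate 1 between orientations, although the mean ratios were −0.77 ± 0.14 and −0.64 ± 0.11. The other 3 were MRPL45 (−0.35 ± 0.06) and the complex I assembly factor NDUFAF2 (−0.47 ± 0.09), both read on reversed arrays alone, and MRPL43 (−0.25 ± 0.05, with 0.01 forward and −0.44 and −0.29 reversed). Whether the channel contributes to these values was not tested for genes with reversed arrays alone.

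With cytarabine 7 of 37 members tested fell and 3 rose, or 18.9% and 8.11%, while over all 4683 features 12.8% fell and 14% rose. The falls numbered 3 without cytarabine replicate 1, 2 without cytarabine replicate 2 and 4 without 5-FU replicate 2. The rises numbered 0 without 5-FU replicate 1 and 1 without cytarabine replicate 2 or either cisplatin replicate. The median member ratio was 0.02 against 0.04 over all features, and the median unsigned ratio 0.11 against 0.17. The largest fall was in MRPS12, which read −0.55 and −0.28. Both arrays were low, the ratio was −0.56 ± 0.10 (adjusted p = 0.00555), and it was −0.41 without the channel term, still passing. MRPL3 read −0.43 and −0.41 and fell by 0.35 ± 0.07 (adjusted p = 0.0104). It did not pass without cytarabine replicate 1 (−0.34) or 2 (−0.36), with arrays scaled (−0.26), or for 1 of its 2 probes alone (−0.20).

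NDUFC1 fell with cytarabine as it did with 5-FU, reading −0.18 and −0.26 for a ratio of −0.34 ± 0.07 (adjusted p = 0.0131). The ratio was −0.22 without the channel term, −0.23 without 5-FU replicate 2 and −0.29 without cytarabine replicate 2, the last 2 not passing. UQCRC2 of complex III read −0.36 and −0.47, both low, and fell by 0.33 ± 0.09 (adjusted p = 0.0333). UQCRC2 did not pass without any 1 replicate of 5-FU (−0.30 and −0.36) or cytarabine (−0.38 and −0.27), with arrays scaled (−0.28), or on the 1 probe that can be tested alone (−0.13). In ATP synthase, ATP5F1A (−0.25 ± 0.06, adjusted p = 0.0245) and ATP5F1D, the delta subunit of the central stalk (−0.43 ± 0.12, adjusted p = 0.036), fell. ATP5F1D read −0.31 and −0.19, and without the channel term its ratio was −0.25 and did not pass. NDUFV1 read 0.28 and 0.38 with cytarabine, both above 0, and its ratio was 0.14 ± 0.08 with no call, but 0.33 without the channel term, which passed. Neither ATP synthase call held without cytarabine replicate 2 (−0.20 for ATP5F1A, −0.49 for ATP5F1D), and that of ATP5F1D was also lost without cytarabine replicate 1 (−0.37).

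MRPL28 of the large ribosomal subunit rose with cytarabine by 0.64 ± 0.18 (adjusted p = 0.0327), from array values of 0.30 and 1.02. Replicate 2 stood far above replicate 1, and without cytarabine replicate 2 the ratio was 0.28 and did not pass. It also failed without 5-FU replicate 1 (0.51). In the 4 other drugs MRPL28 was above 0 on each of the 10 arrays, between 0.08 and 0.73, with no call, although in 5-FU it passed without either cytarabine replicate (0.38). The lowest values of all members were those of NDUFV2, a core complex I subunit that holds an iron-sulfur cluster near the flavin. NDUFV2 read −1.67 and −2.34 with cytarabine, −0.47 and −0.80 with cisplatin, −0.52 and −0.67 with paclitaxel, and −1.0 and −0.39 with cytochalasin D. All 8 arrays were below 0 and the cytarabine arrays lowest. It has no 5-FU value, so no channel effect could be measured for it and part of the ratio may be that of the channel. Without the term the cytarabine ratio was −2.00 ± 0.19 and passed, and the other 3 (−0.63, −0.60 and −0.69, each ± 0.20) did not.

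With cisplatin 3 of 37 members fell and 2 rose (8.11% and 5.41%, against 9.83% and 11.1% of 4883 features), with a median of 0.03 against 0.01 over all features. MRPS31 of the small ribosomal subunit read 0.37 and 0.38 and rose by 0.43 ± 0.10 (adjusted p = 0.0229), or by 0.38 without the channel term, still passing. The arrays were nearly equal, but the call was lost without cisplatin replicate 1 (0.44) or 2 (0.43), when 1 array remained. UQCR11 read −0.27 and −0.04 and was fitted at −0.42 ± 0.09 (adjusted p = 0.0133), against −0.15 without the channel term. NDUFV1, with −0.22 and −0.01, was fitted at −0.30 ± 0.08 (adjusted p = 0.0278), against −0.12 without it. NDUFC1, with −0.24 and −0.02, had −0.25 ± 0.07 (adjusted p = 0.049), against −0.13 without it. None of the 3 passed without the channel term or without cisplatin replicate 1 (−0.31, −0.20 and −0.14), and NDUFV1 and NDUFC1 were also lost without 5-FU replicate 2 (−0.30 and −0.14). NDUFV1 was lost without 5-FU replicate 1 as well (−0.30), and NDUFC1 lost its call in 12 of 17 alternatives. NDUFB2, a membrane arm subunit of complex I without a measurable channel effect, read 0.20 and 0.54 and passed without the term at 0.37 ± 0.10.

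With paclitaxel 1 of 37 members fell and 2 rose (2.7% and 5.41%, against 5.9% and 4.02% of 4796 features; median 0.05 against 0.02). The gene that fell was ATP5F1D, at −0.48 and −0.29, both low, with a ratio of −0.56 ± 0.12 (adjusted p = 0.0339), or −0.39 without the channel term, still passing. It did not pass without paclitaxel replicate 1 (−0.47) or 2 (−0.66). With cytochalasin D 2 of 37 fell and 2 rose (5.41% each, against 7.59% and 6.33% of 4835 features; median −0.0016 against 0.02). MRPS12 read −0.36 and −0.23 and fell by 0.44 ± 0.10 (adjusted p = 0.0284), but without the channel term it was −0.29, with no call. Nor did it pass without cytochalasin D replicate 1 (−0.38) or 2 (−0.51), without 5-FU replicate 2 (−0.30), or when arrays were not averaged within replicates. The rises in both drugs were those of COX11 and MRPL43, and the other fall with cytochalasin D was that of COX15.

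The calls of COX11, COX15 and MRPL43 in these 4 drugs stand apart from the rest, since their channel effects come from 1 pair of 5-FU arrays (−0.54, 0.41 and −0.23) and are larger than their array values. COX11 was called higher in cytarabine, cisplatin, paclitaxel and cytochalasin D (0.42, 0.67, 0.45 and 0.47), although its 8 array values lay between −0.19 and 0.14. COX15 was called lower in cytarabine and cytochalasin D (−0.41 and −0.48) from values between −0.14 and 0.08. MRPL43 was called higher in cytarabine, paclitaxel and cytochalasin D (0.25, 0.36 and 0.30) from values between −0.01 and 0.15. Without the channel term none of these 9 calls held, and COX11 turned negative in cytarabine (−0.12), paclitaxel (−0.087) and cytochalasin D (−0.065), as COX15 turned positive in cytarabine (0.0092). COX11 also mixes probes, since 1 of its 2 probes has no 5-FU value and takes the channel effect of the other. The same holds for UQCRC2, whose cytarabine call is counted below among those that rest on 2 pairs. Of all 22 calls in the 4 drugs, 8 were the same without the channel term: 2 of the 12 that rest on 1 pair of 5-FU arrays and 6 of the 10 that rest on 2 pairs. In 5-FU all 13 were the same, but there the term leaves the ratio unchanged, so this agreement was largely fixed in advance.

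Without the channel term 44 members could be tested in each of the 4 drugs. With cytarabine 6 fell and 2 rose, against 16% and 11.8% of features, and with cisplatin 1 fell and 2 rose, against 9.28% and 6.86%. With paclitaxel 1 fell and 0 rose in limma (3 rose at an unadjusted p under 0.05), against 8.22% and 1.99% of features. With cytochalasin D 2 fell and 0 rose in limma (3 rose at an unadjusted p under 0.05), against 9.11% and 2.6%. In each of these 4 drugs and in each direction the members' share was below that of all features. The counts are small, however, and 0 rises among 44 members lie close to shares of 1.99% and 2.6%. Whether the members' shares differ from those of all features was not tested.

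**Figure D3:**
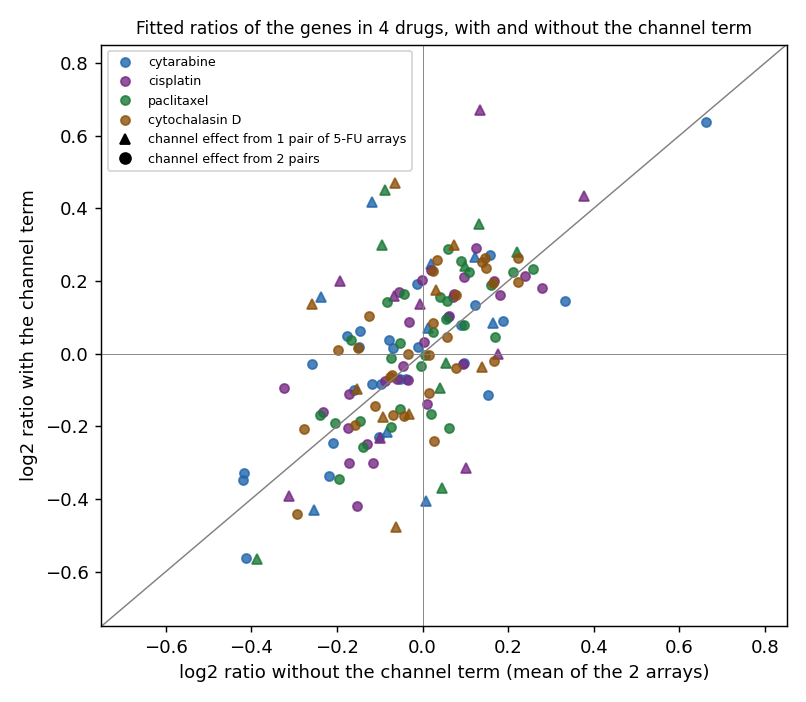
Fitted log2 ratios, drug over untreated, of the members in cytarabine, cisplatin, paclitaxel and cytochalasin D, without the channel term (x axis, the mean of the 2 arrays) and with it (y axis). Triangles, whose channel effect comes from 1 pair of 5-FU arrays, include the COX11 points at 0.42 to 0.67 on the y axis that lie between −0.12 and 0.13 on the x axis.

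The drugs were then compared with each other gene by gene. Doses differ between the drugs, so these are differences between these treatments and not between equal exposures. Array values given beside the differences are not corrected for the channel. Genes are named because they passed, so arrays that do not overlap add no further support. How many of all features separate in this way was not counted. 5-FU differed from cytarabine in 10 of 28 members tested (7 lower and 3 higher, with 14.5% and 8.34% of 3574 features), and from cisplatin in 7 (5 lower and 2 higher, with 11.4% and 5.62% of 3686). It differed from paclitaxel in 8 (6 lower and 2 higher, with 8.56% and 5.26% of 3632) and from cytochalasin D in 11 (7 lower and 4 higher, with 8.29% and 5.02% of 3668). Without 5-FU replicate 1 these 4 counts were 3, 4, 4 and 5. They were also lower, at 6 without cytarabine replicate 2, 4 without cisplatin replicate 1, 4 without paclitaxel replicate 1, and 4 and 5 without cytochalasin D replicates 1 and 2, each in the comparison with that drug. The 36 differences fell on 12 genes. ATP5F1C, COX7A2L, MRPL3, MRPL49, MRPS21 and NDUFA5 differed between 5-FU and each of the other 4 drugs.

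ATP5F1C read −1.22 to −0.51 with 5-FU, against −0.34 and −0.18 with cytarabine, −0.42 and −0.23 with cisplatin, 0.19 and −0.07 with paclitaxel, and −0.14 and −0.11 with cytochalasin D. No 5-FU array overlapped with an array of another drug. The fitted difference was −1.07 ± 0.14 from paclitaxel (adjusted p = 0.00116), −0.89 ± 0.14 from cytochalasin D, −0.75 ± 0.14 from cytarabine and −0.69 ± 0.14 from cisplatin. The last 2 were lost without 5-FU replicate 1 (−0.55 and −0.48), and that from cisplatin without cisplatin replicate 2 (−0.59).

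NDUFA5 read −1.01 to −0.16 with 5-FU, −0.18 and −0.12 with cytarabine, 0.27 and −0.02 with cisplatin, 0.09 and 0.09 with paclitaxel, and −0.16 and −0.14 with cytochalasin D. The forward array of 5-FU replicate 2 lay among those of cytarabine and cytochalasin D, and the other 5-FU arrays were lower than any array of another drug. The difference was −0.94 ± 0.11 from cisplatin (adjusted p = 0.000709), −0.91 ± 0.11 from paclitaxel, and −0.67 ± 0.11 from both cytarabine and cytochalasin D. Without 5-FU replicate 2 those from cytarabine and cytochalasin D were −0.48 each and did not pass.

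MRPL49 read 0.73 to 1.13 with 5-FU, 0.06 and 0.32 with cytarabine, 0.12 and 0.44 with cisplatin, 0.02 and −0.13 with paclitaxel, and 0.03 and −0.16 with cytochalasin D. The 5-FU arrays were all above those of the other drugs. The difference was 1.06 ± 0.16 from cytochalasin D (adjusted p = 0.00236), 1.04 ± 0.15 from paclitaxel, 0.80 ± 0.15 from cytarabine and 0.71 ± 0.16 from cisplatin. The last 2 were lost without 5-FU replicate 2 (0.67 and 0.57), and that from cisplatin without cisplatin replicate 1 (0.55).

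COX7A2L, at −1.47 to −0.31 with 5-FU, read between −0.21 and 0.10 on the 8 arrays of the other drugs, without overlap. Its differences were −0.98 ± 0.22 from cytochalasin D, −0.89 ± 0.22 from cisplatin, −0.87 ± 0.22 from paclitaxel and −0.77 ± 0.21 from cytarabine (adjusted p = 0.0186 to 0.0305). Each was lost without 5-FU replicate 1, at −0.46, −0.37, −0.35 and −0.25, and without either replicate of the drug it was compared with (−1.05 to −0.74). Without the channel term the differences from cytarabine, cisplatin and paclitaxel were −0.55, −0.67 and −0.64 and did not pass.

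MRPS21 differed by −0.80 ± 0.16 from paclitaxel and from cytochalasin D, by −0.64 ± 0.16 from cisplatin and by −0.62 ± 0.16 from cytarabine, and each difference was lost without 5-FU replicate 1 (−0.70, −0.70, −0.54 and −0.52). MRPL3 differed by −0.53 ± 0.09 from cisplatin and from paclitaxel, by −0.49 ± 0.09 from cytochalasin D and by −0.35 ± 0.09 from cytarabine. For 1 of its probes alone these were 0.15, 0.044, 0.089 and −0.08, with no call, so the MRPL3 differences rest on the other probe. The MRPL3 difference from cytarabine was also lost without 5-FU replicate 1 (−0.40) or 2 (−0.30) and without cytarabine replicate 1 (−0.36) or 2 (−0.34). That from cytochalasin D was lost without 5-FU replicate 2 (−0.44). MRPS12, with no call in 5-FU itself, was higher with 5-FU than with cytarabine by 0.71 ± 0.13 (adjusted p = 0.00444), a call kept under each alternative. It was also higher than with cytochalasin D (0.59 ± 0.13, lost without 5-FU replicate 2 at 0.58 and without cytochalasin D replicate 1 at 0.53). Against paclitaxel (0.50 ± 0.13) the call was lost without any 1 replicate of either drug (0.48 to 0.51) and without the channel term (0.35).

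UQCR11 was higher with 5-FU than with cisplatin by 0.57 ± 0.11 (adjusted p = 0.00788), and by 0.30 without the channel term, which did not pass. The further differences between 5-FU and another drug were those of MRPS27 (−0.55 from cytarabine, −0.58 from paclitaxel and −0.47 from cytochalasin D), NDUFV1 (−0.40 from cytarabine), NDUFS5 (0.49 from cytarabine and 0.42 from cytochalasin D), NDUFB5 (−0.41 from cytochalasin D) and UQCR11 (0.39 from cytochalasin D). None of these 8 passed without 5-FU replicate 1 (−0.51, −0.54, −0.43, −0.42, 0.48, 0.42, −0.48 and 0.46, in the same order). They did not pass without 5-FU replicate 2 either (−0.58, −0.62, −0.51, −0.39, 0.49, 0.42, −0.34 and 0.32, in the same order). Each was also lost without at least 1 replicate of the drug it was compared with. UQCR11 differed from cytochalasin D by 0.12 without the channel term, with no call.

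**Figure D4:**
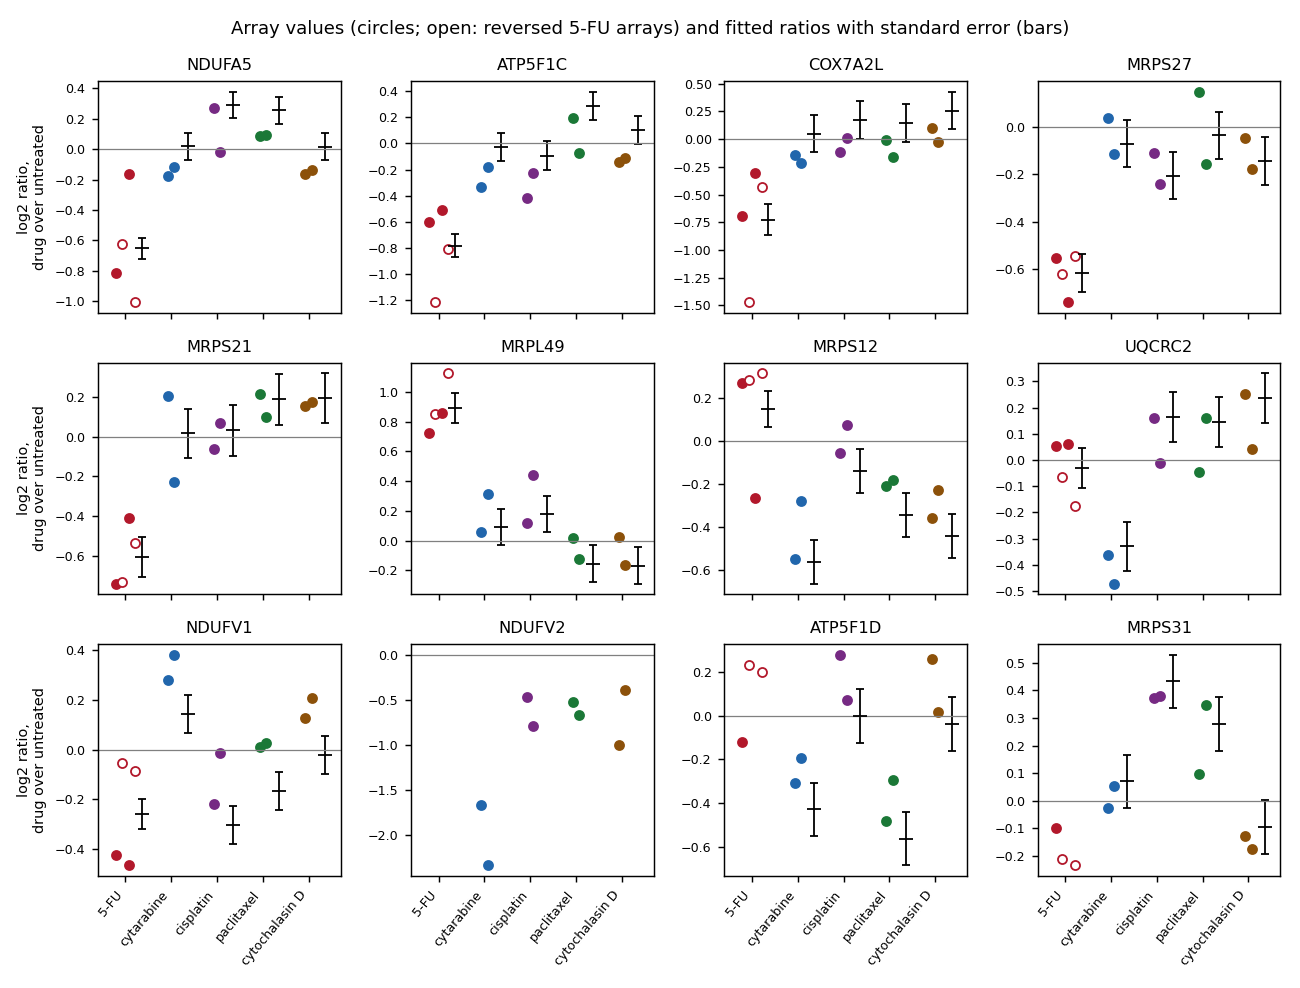
Log2 ratios, drug over untreated, of 12 genes in the 5 drugs, with array values as circles (open for the reversed 5-FU arrays) and the fitted ratio with its standard error as bars where the channel effect could be measured. In ATP5F1C, COX7A2L, MRPS27, MRPS21 and MRPL49 no 5-FU array overlaps with an array of another drug, while 1 of the 4 NDUFA5 arrays does. The genes were picked for their calls and the circles are not corrected for the channel, so this is a description. The share of all features that separate in this way was not counted. The other panels include NDUFV2, which has no 5-FU value, and MRPS31, at 0.37 and 0.38 with cisplatin.

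Between the 4 drugs hybridised in a single orientation the channel effect cancels, and 44 members could be tested. Cytarabine differed from cisplatin in 7 members (6 lower and 1 higher, with 14.2% and 9.94% of 6622 features). The genes lower with cytarabine were NDUFV2 (difference −1.37 ± 0.27, adjusted p = 0.0119), NDUFB2 (−0.53 ± 0.12), UQCRC2 (−0.49 ± 0.11), ATP5F1D (−0.43 ± 0.13), MRPS12 (−0.42 ± 0.12) and MRPS31 (−0.36 ± 0.10). NDUFV1 was the gene that was higher, at 0.28 and 0.38 with cytarabine against −0.22 and −0.01 with cisplatin, without overlap and by 0.45 ± 0.09 (adjusted p = 0.0111). Without cytarabine replicate 2 all 7 but MRPS12 were lost: NDUFV2 (−1.03), NDUFB2 (−0.57), UQCRC2 (−0.44), ATP5F1D (−0.49), MRPS31 (−0.40) and NDUFV1 (0.40). Without cytarabine replicate 1 MRPS12 (−0.29), ATP5F1D (−0.37), MRPS31 (−0.33) and NDUFB2 (−0.49) were lost. Without cisplatin replicate 1 NDUFV2 (−1.21), NDUFV1 (0.34), UQCRC2 (−0.40), ATP5F1D (−0.32), MRPS12 (−0.49) and MRPS31 (−0.37) were lost. Without cisplatin replicate 2 NDUFB2 (−0.36), ATP5F1D (−0.53), MRPS12 (−0.36) and MRPS31 (−0.36) were lost.

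Cytarabine was lower than cytochalasin D in NDUFV2 (−1.31 ± 0.27) and UQCRC2 (−0.57 ± 0.11), with 2.63% of 6604 features lower and 1.83% higher, and neither passed without cytarabine replicate 2 (−0.97 and −0.51) or without either cytochalasin D replicate. NDUFV2 was also lost without any replicate of cisplatin or paclitaxel, and UQCRC2 without cytarabine replicate 1 (−0.62). Fitted apart, the 2 probes of UQCRC2 gave −0.97, which passed, and −0.17, which did not, so this difference rests on 1 probe. Cisplatin was higher than paclitaxel in ATP5F1D (0.56 ± 0.13, adjusted p = 0.0489, with 4.4% of 6891 features higher and 1.92% lower), a call lost without any 1 of the 10 replicates (0.46 to 0.67). It was higher than cytochalasin D in MRPS31 (0.53 ± 0.10, adjusted p = 0.0255, with 5.53% of 6948 features higher and 2.72% lower), lost without any replicate of either drug (0.51 to 0.55). No member differed between cytarabine and paclitaxel (0.0305% of 6558 features each way) in limma, with 4 of 44 at an unadjusted p under 0.05 (NDUFV2 passed at −1.74 without cytarabine replicate 1), or between paclitaxel and cytochalasin D (0.131% higher and 0.117% lower of 6855), with 6. The median standard error of these differences was 0.10, and the fitted differences between cytarabine and paclitaxel ran from −1.40, in NDUFV2, to 0.40. These 2 comparisons therefore do not show that the drugs act alike on these genes.

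Other genes of mitochondrial function were read from 5 lists. Of protein import and chaperone genes 9 of 11 on the array were tested in 5-FU, and 5 fell and 1 rose, with a median of −0.45 against 0.01 over all features, of which 12.1% fell and 5.54% rose. The lists are short, and the shares of all features that fell and rose were 12.8% and 14% in cytarabine, 9.83% and 11.1% in cisplatin, 5.9% and 4.02% in paclitaxel, and 7.59% and 6.33% in cytochalasin D. HSPD1 (−1.51 ± 0.07), HSPA9 (−0.65 ± 0.09) and TRAP1 (−1.07 ± 0.06), chaperones of the matrix, and TOMM20 (−0.80 ± 0.06) and TIMM17B (−0.45 ± 0.05), subunits of the import pores, fell, and TIMM8A, an intermembrane carrier, rose by 0.41 ± 0.11. In the other drugs 0 to 2 of these genes passed in either direction, and these calls depend on the channel term. HSPD1 had ratios of −0.28 (a fall), −0.25, −0.083 and 0.035 in cytarabine, cisplatin, paclitaxel and cytochalasin D with that term. Without it HSPD1 fell in all 4, at −0.66, −0.63, −0.46 and −0.34, so its fall was not confined to 5-FU in that fit. TOMM20 likewise fell without the term in cytarabine and cisplatin (−0.24 each), and TIMM17B rose in cytarabine (0.34). OXA1L, which inserts subunits into the inner membrane, fell with 5-FU (−0.50 ± 0.07) and rose with cisplatin (0.52 ± 0.09), the single call among 4 assembly genes in each. ATPAF2, an assembly factor of ATP synthase, fell with cytarabine (−0.76 ± 0.12).

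Of 9 citric acid cycle and pyruvate dehydrogenase genes on the array, 4 were tested in 5-FU and 5 in the other drugs. In 5-FU the ratios ran from −0.21 to 0.02, with no call in limma (1 at an unadjusted p under 0.05). Without the channel term 2 genes of this list fell in 5-FU, where 13.4% of 5589 features fell. IDH3G, a subunit of NAD-dependent isocitrate dehydrogenase, fell with cytarabine (−0.87 ± 0.10), paclitaxel (−0.57 ± 0.10) and cytochalasin D (−0.57 ± 0.10). DLD, the lipoamide dehydrogenase shared by several of these complexes, fell with cytarabine (−0.43 ± 0.10), cisplatin (−0.36 ± 0.10) and paclitaxel (−0.43 ± 0.10), and DLST rose with cytarabine (0.74 ± 0.18). Of 8 mitochondrial DNA and biogenesis genes on the array, 5 were tested in 5-FU and 7 in the other drugs. In 5-FU the ratios ran from −0.23 to 0.06, with no call in limma (1 at an unadjusted p under 0.05). Without the channel term 1 gene of this list rose in 5-FU, where 6.75% of 5589 features rose. GABPA, a subunit of the ETS factor named above, rose with cytarabine (0.49 ± 0.09), and TFAM, which packages mitochondrial DNA, and MYC fell with cytochalasin D (−0.39 ± 0.08 and −0.37 ± 0.09). Of 3 translation genes on the array 2 were tested outside 5-FU. GARS1, a tRNA synthetase of cytosol and mitochondria, fell with cytarabine (−0.34 ± 0.08), cisplatin (−0.36 ± 0.08) and cytochalasin D (−0.46 ± 0.08), and MRRF, which recycles mitochondrial ribosomes, rose with cisplatin (0.50 ± 0.11).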

How the data were processed

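The log2 ratios of the 12 arrays are values deposited by the authors, and the sources used here do not give their base, numerator, normalization or spot filter. Per the labels, samples are known by drug, dose, time, replicate and channel orientation. Of 8170 probes, 5930 match 1 gene, 79 several and 2161 none. Here the probes of a gene were averaged, which gave 7739 features, and arrays were centred on their medians and turned to drug over untreated. From each forward and reversed pair of 5-FU arrays a drug ratio and a channel effect were computed, and the channel effect entered the fit as 1 further observation, weighted 4 (from 2 pairs) or 2 (from 1 pair), beside the 10 replicates. Its error is therefore assumed and not measured, so calls in the other 4 drugs may be too many. The same holds for differences between 5-FU and another drug, in which the channel effect does not cancel. The fit covered all 5 drugs together and used limma 3.58.1 (R 4.3.3), and a gene was tested where each replicate of the drug had a value. The fit was also run on simulated data, where 14 of 208 calls in 5-FU and 12 of 191 in cytarabine were false. There the channel effect was drawn with the assumed error, so this run could not check that error. Signal over background is unknown, and the number of arrays limits the precision. The members, lists and tests were chosen with earlier results of these data known. Genes named with array values are, per drug, up to 6 rises and 6 falls that passed, the largest differences per drug pair, the complex II subunits and the largest change per complex. Array values of COX4I1, COX15, NDUFS4 and MRPL19, and those of COX11, MRPL43, NDUFC1, NDUFV1 and ATP5F1A in 5-FU, were added after they were seen. Alternatives dropped the channel term, treated each array as an observation, changed centring, scaling, missing values or probes, added a replicate block, used only the 4 drugs of 1 orientation, or left out each replicate.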

Additional observations from a re-analysis of the deposited data

How the results depend on the processing

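The 13 calls in 5-FU kept their direction under each alternative, and 7 of them (ATP5F1C, COX7A2L, MRPL3, MRPL49, MRPS27, NDUFA5 and NDUFS5) kept the call in all. Without the channel term more genes could be tested: 17 members fell in 5-FU (10 with it), 1 fell in cisplatin (3), and 0 rose in paclitaxel and 0 in cytochalasin D (2 each). 5-FU differed from cytarabine in 16 (10), from cisplatin in 12 (7), from paclitaxel in 13 (8) and from cytochalasin D in 17 (11). Cytarabine differed from cytochalasin D in 1 (2). Over all features in that fit, 15.4% were lower and 11.5% higher with 5-FU than with cytarabine (of 5071). Against cisplatin these shares were 11.8% and 5.88% (of 5302), and against paclitaxel 9.34% and 6.34% (of 5204). Against cytochalasin D they were 8.97% and 6.03% (of 5253). Between cytarabine and cytochalasin D 1.98% were lower and 1.42% higher (of 6604). COX11 reversed to −0.12 in cytarabine, −0.087 in paclitaxel and −0.065 in cytochalasin D, and COX15 to 0.0092 in cytarabine. In the other mitochondrial lists, without that term, 3 genes rose in 5-FU (1), 8 fell in cytarabine (5), 6 fell in cisplatin (3), 1 rose (0) and 6 fell (2) in paclitaxel, and 1 rose (0) and 7 fell (4) in cytochalasin D. With every array as its own observation 5 members rose in 5-FU (3), 1 in cytarabine (3), 1 in paclitaxel (2) and 1 in cytochalasin D (2), 0 fell in cytochalasin D (2) and 1 differed between cytarabine and cytochalasin D (2). With arrays scaled to the same spread 1 rose (3) and 2 fell (7) in cytarabine, 2 fell in paclitaxel (1), 4 differed between cytarabine and cisplatin (7) and 0 between cytarabine and cytochalasin D (2). Over features with a value on every array, which leaves fewer genes, 1 rose in cytarabine (3), 1 in cisplatin (2), 0 in paclitaxel (2) and 1 in cytochalasin D (2), 0 fell in paclitaxel (1) and 1 in cytochalasin D (2), and 1 differed between cytarabine and cytochalasin D (2), 0 between cisplatin and paclitaxel (1) and 0 between cisplatin and cytochalasin D (1). Single probes gave 1 rise in cytochalasin D (2), and for 1 probe of MRPL3 the differences of 5-FU from cisplatin, paclitaxel and cytochalasin D reversed to 0.15, 0.044 and 0.089. No centring, and likewise the 4 drugs of 1 orientation fitted alone, gave 0 differences between cisplatin and paclitaxel (1).

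Leaving out each of the 10 replicates gave 2 to 4 rises and 5 to 11 falls in 5-FU, 0 to 3 and 2 to 7 in cytarabine, 2 to 2 and 0 to 3 in cisplatin, 0 to 2 and 0 to 2 in paclitaxel, and 0 to 3 and 0 to 2 in cytochalasin D. The members that differed then numbered 3 to 10 between 5-FU and cytarabine, 4 to 9 between 5-FU and cisplatin, 4 to 10 between 5-FU and paclitaxel, 4 to 10 between 5-FU and cytochalasin D, 1 to 7 between cytarabine and cisplatin, 0 to 1 between cytarabine and paclitaxel, 0 to 2 between cytarabine and cytochalasin D, 0 to 0 between cisplatin and paclitaxel, 0 to 1 between cisplatin and cytochalasin D, and 0 to 0 between paclitaxel and cytochalasin D. The lone replicate left in a drug was assumed to vary like the other groups. The deviations of same-numbered replicates correlated at −0.0611 to 0.0904 over 10 pairs of drugs, none over 0.1. No shift common to a replicate number was thus seen. Whether same-numbered samples were handled together is not given by the labels and cannot be told from these correlations. With the replicate block 2 members fell in paclitaxel (1), 1 differed between cytarabine and cytochalasin D (2) and 0 between cisplatin and paclitaxel (1). The cause of these shifts was not tested, apart from the smaller number of genes or samples that some alternatives leave. Signal over background is unknown for these ratios, and missing values on the 5-FU arrays limit what could be tested there.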

Other observations

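The 3 members with 2 probes show how far probes of a gene can part on these arrays, as values with no explanation. The probes of MRPL3 read −0.25, −0.31, −0.29 and −0.26 against −0.91, −1.03, −1.15 and −1.37 on the 4 5-FU arrays, so that both were low but far apart. On the cisplatin arrays their order turned, with −0.55 and −0.30 for the probe that changed less in 5-FU, against −0.09 and 0.00 for the other. 1 of the 2 probes of UQCRC2 read −0.47 and −0.76 with cytarabine against −0.25 and −0.19 for the other, and 0.53 and 0.17 against −0.03 and −0.09 with cytochalasin D. The same UQCRC2 probe has no 5-FU value. COX11 has 1 probe with −0.16 and −0.39 with cytarabine and −0.40 and −0.25 with paclitaxel, while its other probe, the one with 5-FU values, read 0.06 and 0.01 with cytarabine and 0.12 and 0.19 with paclitaxel. The averages reported for these 3 genes therefore combine probes that did not read alike.

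MRPL28 was above 0 on all 12 arrays, between 0.08 and 1.02, with a call in cytarabine alone, and MRPL3 was below 0 on all 12, between −0.82 and −0.15. Since untreated RNA may be shared between drugs, a sign common to all arrays is not independent evidence from each drug.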
